A study of Mus musculus with 8 samples.

Results

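The 31 genes described here encode the route from pyruvate through pyruvate dehydrogenase into the tricarboxylic acid (TCA) cycle, and they were measured in whole hearts of Lrpprc knockout and wildtype mice. They were listed by name and role, with earlier results of these data known, and all 31 were found among the 50599 gene records of each library. They comprise 2 subunits of the mitochondrial pyruvate carrier, 5 genes of the pyruvate dehydrogenase (PDH) complex, 4 PDH kinases, 2 PDH phosphatases, 12 cycle enzymes, 4 anaplerotic and malic enzymes, and 2 cytosolic counterparts of cycle enzymes. The 8 libraries came from 4 wildtype and 4 Lrpprc knockout hearts of male C57BL/6N mice at 12 weeks of age. Loss of LRPPRC, a protein that binds mitochondrial mRNA, was restricted to heart and skeletal muscle, and by the study's account of this line the control animals carried the same loxP-flanked Lrpprc alleles without Cre. The promoter that drives Cre is not given in the sources used here, and a value for the whole heart averages over all of its cell types. In such bulk RNA, fewer cells of a type and less RNA per cell cannot be told apart.

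Pyruvate enters the mitochondrial matrix through a carrier formed by MPC1 and MPC2 and is converted to acetyl-CoA by the PDH complex. Kinases switch the complex off by phosphorylating its alpha subunit and phosphatases switch it back on, which in heart sets the balance between glucose and fatty acid oxidation. The cycle then oxidises acetyl-CoA and passes electrons to the respiratory chain, while anaplerotic enzymes replace cycle intermediates that are drawn off.

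Total counts ranged from 35218541 to 47743376 per library and did not differ detectably between the genotypes (exact permutation test over 70 assignments, two-sided, p = 0.6). Mitochondrial rRNA took 44.0 to 46.9% of the counts in wildtype and 65.6 to 67.8% in knockout libraries, and the 31 genes took 0.530 to 0.567% and 0.384 to 0.465%. Lrpprc itself had 3424 to 3946 normalised counts in wildtype and 504 to 605 in knockout libraries, a log2 fold change of -2.67 (SE 0.1, adjusted p = 3.77e-153). The marker genes of cardiomyocytes were abundant in every library, and their summed normalised count ranged from 1011577 to 1124329 in wildtype and from 481482 to 629521 in knockout hearts, with 6 of 8 markers lower. Fibroblast markers summed to 18172 to 18946 in wildtype and 19171 to 64147 in knockout hearts with 4 of 7 higher, and macrophage markers to 2207 to 2801 and 2755 to 5997 with 5 of 6 higher. Smooth muscle markers summed to 5513 to 7139 in wildtype and 1830 to 4241 in knockout hearts with 2 of 4 lower, and no endothelial, adipose or erythroid marker was called. No marker of any list was below 1 in all libraries. Knockout replicate 3 stood apart, with the lowest fibroblast sum of the knockout hearts and an atrial marker sum of 1268 normalised counts, against 3233 to 6012 in the other knockout and 9980 to 12038 in the wildtype hearts (2 of 4 markers lower). The part of cell composition, of the rRNA share and of this library in the results was not tested, and values without knockout replicate 3 are given beside the genes whose call or size depended on it most.

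In the knockout hearts the largest changes among the called genes were those of Pdp2, Pdk3, Me2, Pdhb and Pdk2. The gene for the PDH phosphatase PDP2 fell 5.08-fold, the gene for the kinase PDK2 fell 1.75-fold, and the genes for the kinases PDK1 and PDK3, the PDH subunits PDHB and PDHX and the malic enzymes ME1 and ME2 rose. By DESeq2 (a gene is called here when its Benjamini-Hochberg adjusted p is under 0.05), 6 of the 31 genes were higher in knockout hearts, 11 were lower and 14 were not called. Of all 19959 genes tested, 33.7% were called, 18.2% as higher and 15.5% as lower. In this fit 6 of 31 is near the background share and 11 of 31 is above it. The background was not matched to the 31 genes for expression level. The median log2 fold change was -0.16 over the 31 genes and 0.01 over all genes tested. Counted without any model, the 4 knockout values lay wholly above the 4 wildtype values in 8 of the 31 genes and wholly below in 11, and they overlapped in 12. Among all genes tested the knockout values lay wholly above in 16.7% and wholly below in 16.4%. The quasi-likelihood test of edgeR called 6 of the 31 genes higher and 13 lower, against 20.2% and 19.6% of all genes it tested.

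**Figure D1:**
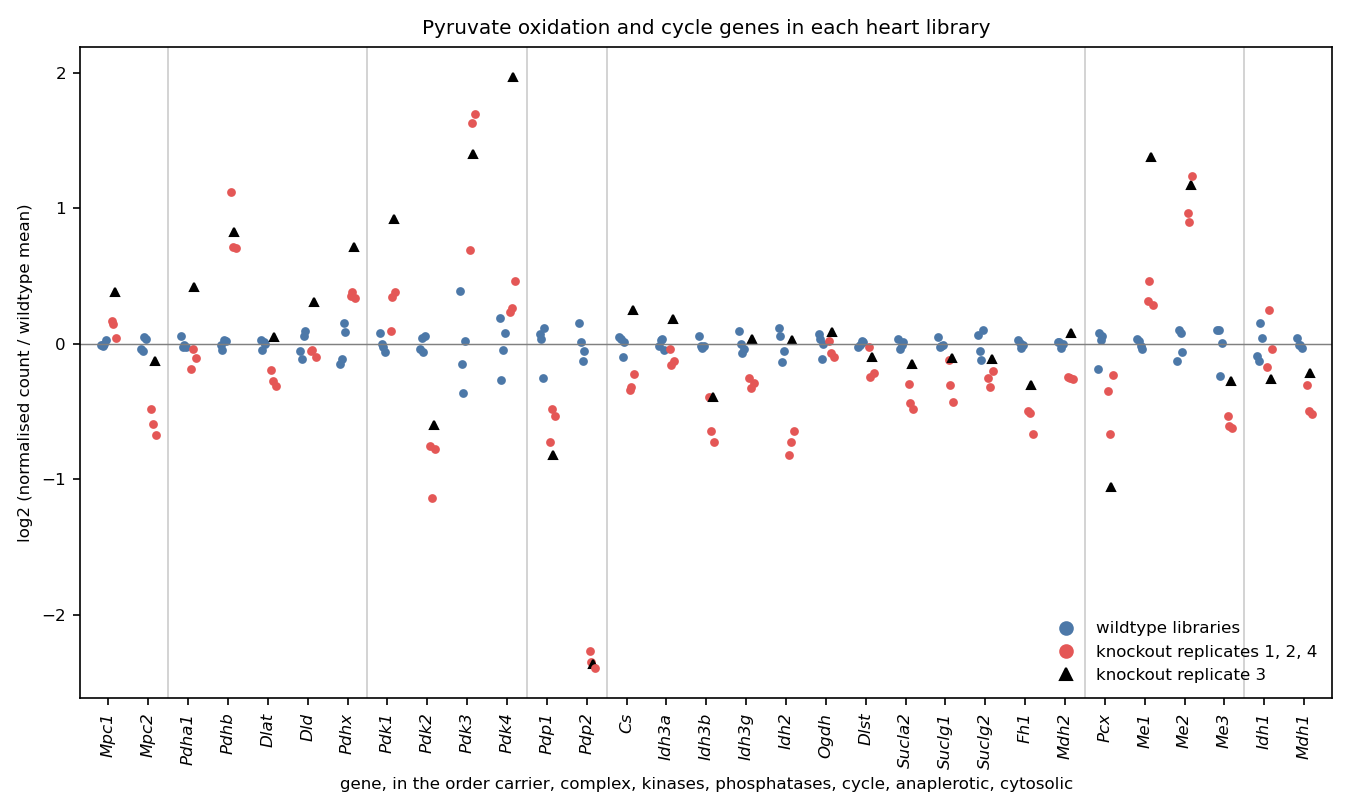
Normalised count of each of the 31 genes in each library, as the log2 ratio to the gene's wildtype mean (vertical axis), with genes ordered by role along the horizontal axis. Blue points are the 4 wildtype libraries, red points knockout replicates 1, 2 and 4, and black triangles knockout replicate 3, which was the highest of the knockout libraries in 22 of the 31 genes.

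Knockout replicate 3 was the highest of the 4 knockout libraries in 22 of the 31 genes and the lowest in 3, namely Pdp1, Pcx and Idh1. Across all genes tested it was the highest in 33.8%. When it was left out, 7 of the 31 genes were called higher and 17 lower, against 19.4% and 17.2% of all genes tested in that fit, and the median log2 fold change of the 31 genes was -0.26. In that fit 9 of the 12 cycle enzymes were called lower, against 4 with all 8 libraries.

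The direction of small changes also depended on how the libraries were scaled. Scaling by total counts moved the median log2 fold change of 15754 genes with a mean of at least 10 by -0.30, and scaling by total counts without mitochondrial rRNA moved it by 0.43. Under total counts 3 of the 31 genes were called higher and 21 lower, against 9.64% and 29.6% of all genes tested. Under total counts without mitochondrial rRNA 20 were called higher and 2 lower, against 38.9% and 5.43%. A scaling moves all genes of a library by nearly the same amount, so that the position of the 31 genes relative to the median gene is set by how the scalings are built. Their median lay -0.18 from the median gene under the median-of-ratios scaling used here and -0.19 under each of the others, with 10 of the 31 genes above the median gene and 21 below. Pdhb, Pdk2, Pdk3, Pdp2 and Me2 kept their call under each of the 15 alternatives run for every member. Of the genes called higher, Pdk1, Pdhx and Me1 lost their call under total counts, at log2 fold changes of 0.16, 0.16 and 0.37. They kept it under total counts without mitochondrial rRNA, at 0.88, 0.88 and 1.09.

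**Figure D2:**
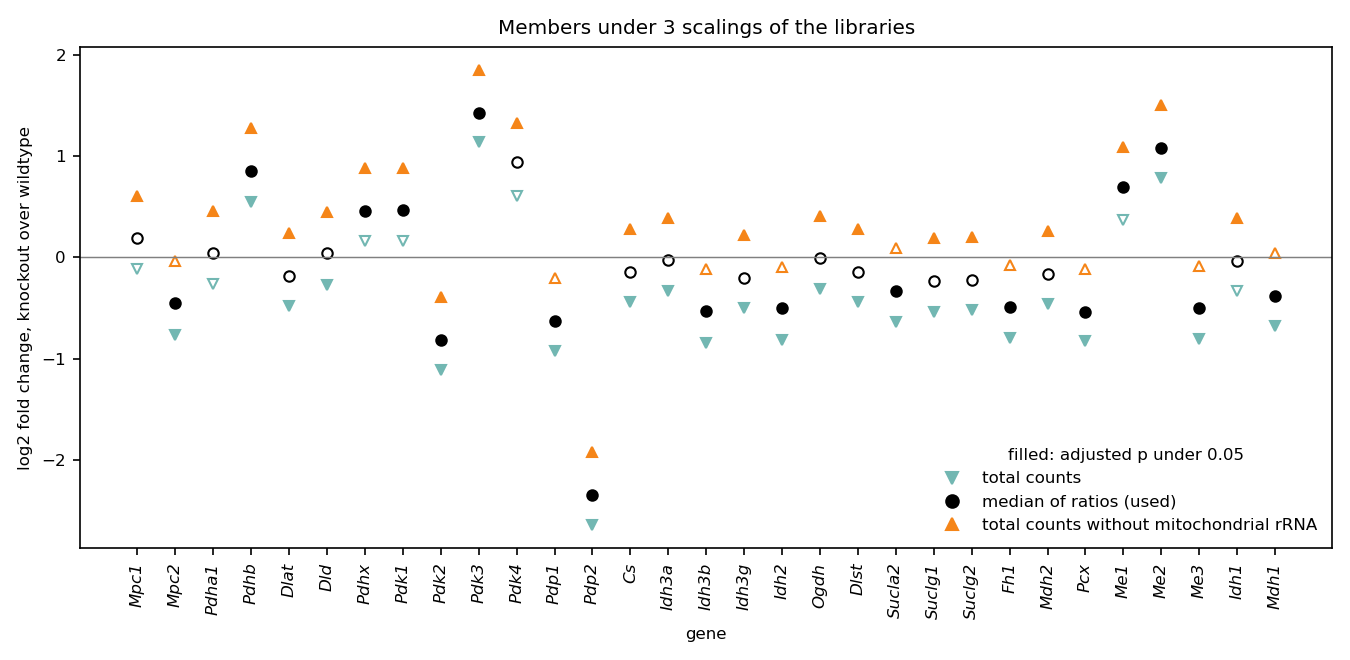
Log2 fold change of knockout over wildtype (vertical axis) for each of the 31 genes under median-of-ratios scaling (circles), total counts (downward triangles) and total counts without mitochondrial rRNA (upward triangles), with filled symbols for an adjusted p under 0.05. All 12 cycle enzymes from Cs to Mdh2 are called lower under total counts (29.6% of all genes) and 8 of them higher under total counts without mitochondrial rRNA (38.9% of all genes), whereas Pdp2 lies far below 0 and Pdhb, Pdk3 and Me2 above 0 under all 3.

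Of the 2 subunit genes of the pyruvate carrier, Mpc2 was lower in the knockout hearts and Mpc1 was not called, whereas under total counts without mitochondrial rRNA Mpc2 was not called at a log2 fold change of -0.04 (adjusted p = 0.818) and Mpc1 was called higher at 0.61 (adjusted p = 3.58e-20). Mpc2 had 2982, 2962, 3179 and 3139.6 normalised counts in the wildtype hearts and 2199, 2037, 2808 and 1924 in the knockout hearts, each listed by replicate number from 1 to 4 as throughout. All knockout libraries were lower than all wildtype libraries, with knockout replicate 3 nearest to them, and the log2 fold change was -0.45 (SE 0.131, adjusted p = 0.00274). Mpc1, whose product forms the carrier together with MPC2, had 5322, 5287, 5346 and 5469.8 in wildtype and 6015, 5931, 6982 and 5530.3 in knockout libraries. Its knockout values all lay above the wildtype values but by little, and the log2 fold change of 0.19 (SE 0.0936, adjusted p = 0.104) was not called. It was called higher without the correction for transcript length, at 0.22 (adjusted p = 0.0414), and without knockout replicate 4, at 0.24 (adjusted p = 0.0464), while without knockout replicate 3 it was 0.12 (adjusted p = 0.159) and under total counts -0.11 (adjusted p = 0.168), both not called. As a ratio of TPM (a level relative to all transcripts of a library and per transcript length in which the scaling of a library cancels), Mpc1 over Mpc2 was 1.49 ± 0.0417 (SD, n = 4) in wildtype and 2.35 ± 0.165 in knockout hearts, without overlap. Mpc1 thus exceeded Mpc2 by more, per transcript length, in every knockout heart.

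Among the subunits of the PDH complex the gene for the beta subunit of its dehydrogenase component stood out. Pdhb (chr14:8165996-8173025, GRCm38) had 5704, 5549, 5839.6 and 5826 normalised counts in wildtype and 12493, 9399, 10180.1 and 9344 in knockout libraries. Every knockout heart exceeded every wildtype heart, with knockout replicate 1 the highest, and the change was 1.81-fold with a log2 fold change of 0.85 (SE 0.114, adjusted p = 1.39e-12). Pdha1, encoding the alpha subunit that pairs with PDHB and carries the phosphorylation sites, had 16452, 15558, 15739.5 and 15606 in wildtype and 13934, 15417, 21161 and 14694 in knockout libraries. Its groups overlapped, knockout replicate 3 was far above the rest, and the log2 fold change of 0.04 (SE 0.14, adjusted p = 0.857) was not called and became -0.11 without that library. The TPM ratio of Pdha1 to Pdhb was 1.37 ± 0.0480 in wildtype and 0.795 ± 0.196 in knockout hearts (SD, n = 4), with wildtype values of 1.33 to 1.43 and knockout values of 0.553 to 1.03.

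Pdhx, whose product anchors the lipoamide dehydrogenase component to the core of the complex, had 1726, 1779, 2129 and 2038 normalised counts in wildtype and 2455, 2504, 3156 and 2429 in knockout libraries. All knockout values were higher, knockout replicate 3 most of all, and the log2 fold change was 0.46 (SE 0.127, adjusted p = 0.00157). Dlat, encoding the acetyltransferase that forms that core, ranged over 5744 to 6046 in wildtype and 4775 to 6129 in knockout libraries and was not called, with a log2 fold change of -0.18 (SE 0.102, adjusted p = 0.175). Without knockout replicate 3 its log2 fold change was -0.26 (adjusted p = 0.000622) and it was called lower. The ratio of Dlat to Pdhx in TPM was 2.51 ± 0.253 in wildtype and 1.60 ± 0.0621 in knockout hearts (SD, n = 4) and did not overlap. Dld, encoding the lipoamide dehydrogenase that this complex shares with the 2-oxoglutarate dehydrogenase complex, ranged over 4025 to 4641 in wildtype and 4048 to 5378 in knockout libraries, a log2 fold change of 0.04 (SE 0.119, adjusted p = 0.856) that was not called. Of the 5 genes of the complex, 2 were higher, none was lower and 3 were not called, with a median log2 fold change of 0.04, whereas under total counts 1 was higher and 2 were lower and under total counts without mitochondrial rRNA all 5 were higher. Over all genes tested the same fits called 18.2%, 9.64% and 38.9% higher and 15.5%, 29.6% and 5.43% lower.

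**Figure D3:**
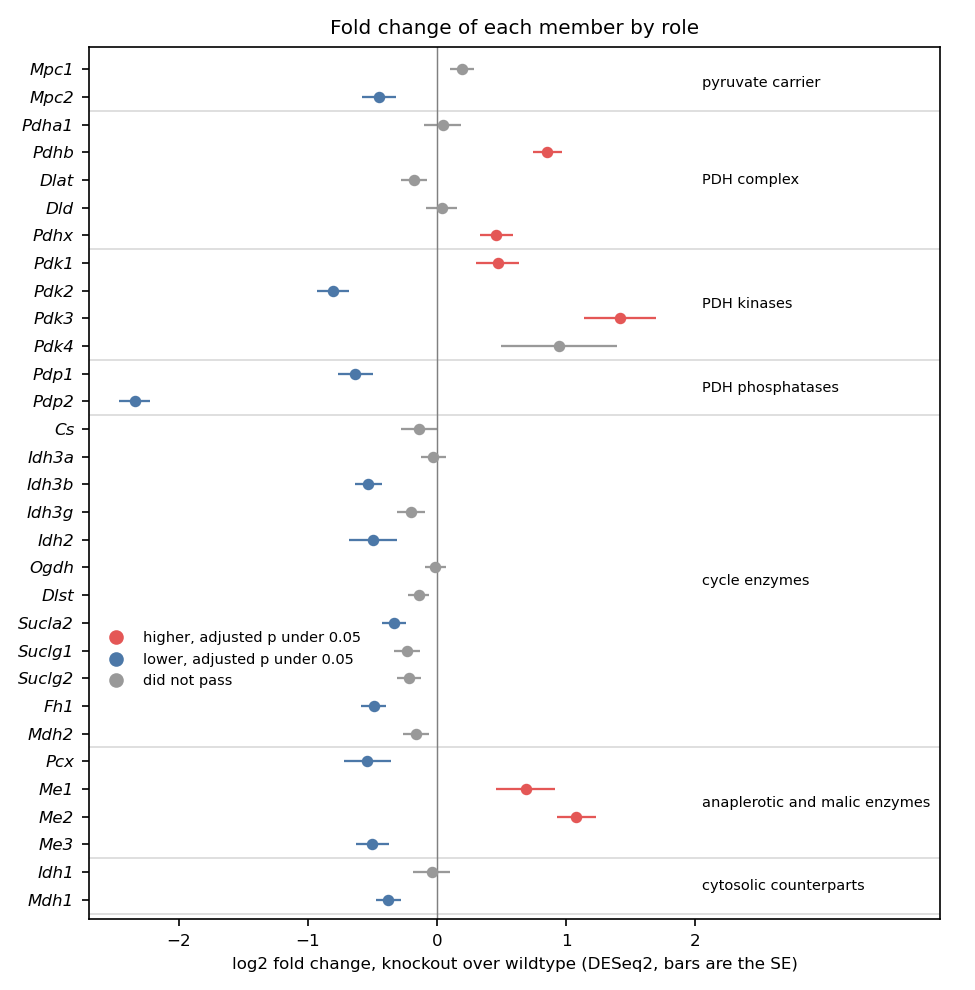
Log2 fold change of knockout over wildtype from DESeq2 (horizontal axis) for the 31 genes grouped by role (vertical axis), with bars of 1 SE. Red marks genes called higher, blue genes called lower and grey genes not called, and the points run from Pdp2 at -2.34 to Pdk3 at 1.42.

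The 4 PDH kinases did not change together. Pdk2 (chr11:95026258-95041354), the kinase gene with the highest TPM in the wildtype hearts, had 3533, 3728, 3469.6 and 3778 normalised counts in wildtype and 2146, 1651, 2388 and 2118 in knockout libraries. All knockout hearts were lower than all wildtype hearts, with knockout replicate 2 the lowest, and the log2 fold change was -0.81 (SE 0.123, adjusted p = 1.17e-09). Pdk4, whose transcript is known to rise in heart with fasting and fatty acid supply, had 5000.5, 3634, 4248 and 4621 in wildtype and 5151, 5268, 17191 and 6038 in knockout libraries. Knockout replicate 3 stood far above the other 3 knockout libraries, and knockout replicate 1 lay just above the highest wildtype library. The log2 fold change of 0.94 (SE 0.448, adjusted p = 0.0914) was not called, and without knockout replicate 3 it was 0.33 (adjusted p = 0.0207) and called higher.

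Pdk3 (chrX:93764607-93832201), a kinase gene of low level in heart, had 62.0, 42.7, 36.8 and 48.2 normalised counts in wildtype and 76.5, 147, 126 and 154 in knockout libraries. Each knockout library exceeded each wildtype library, with knockout replicate 1 nearest to them, and the change was 2.67-fold with a log2 fold change of 1.42 (SE 0.277, adjusted p = 3.06e-06). It rests on 41 to 170 counts per library. Pdk1, a kinase gene known as a target of hypoxia-inducible factor, had 2872, 2712, 2669 and 2604 in wildtype and 2905, 3454, 5136 and 3533 in knockout libraries. Knockout replicate 1 lay just above the highest wildtype library and knockout replicate 3 far above it, and the log2 fold change was 0.47 (SE 0.167, adjusted p = 0.0179). Without knockout replicate 3 it was 0.28 (adjusted p = 0.00939). Pdk1 was not called without wildtype replicate 3, at 0.46 (adjusted p = 0.0518), or wildtype replicate 4, at 0.45 (adjusted p = 0.0605), nor without the correction for transcript length, where its log2 fold change was 0.17 (adjusted p = 0.189). Among the 4 kinases 2 were called higher, 1 was called lower and 1 was not called, whereas 1 was higher and 1 lower under total counts and 3 were higher and 1 lower under total counts without mitochondrial rRNA. For comparison, 18.2%, 9.64% and 38.9% of all genes tested were called higher in these fits and 15.5%, 29.6% and 5.43% lower.

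The most abundant kinase transcript was Pdk2 in wildtype and Pdk4 in knockout hearts. Pdk2 held 42.9 to 49.8% of the summed TPM of the 4 kinases in wildtype hearts and 15.1 to 30.8% in knockout hearts. Pdk4 held 29.2 to 36.6% in wildtype and 44.5 to 65.7% in knockout hearts, the highest share being that of knockout replicate 3. Every wildtype heart thus had more Pdk2 than Pdk4 per transcript length, and every knockout heart more Pdk4 than Pdk2. The ratio of Pdk4 to Pdk2 was 0.853, 0.587, 0.738 and 0.737 in wildtype and 1.45, 1.92, 4.34 and 1.72 in knockout hearts. Pdk1 relative to Pdk2 was 0.422 ± 0.0300 in wildtype and 1.02 ± 0.212 in knockout hearts, and Pdk3 relative to Pdk2 was 0.0143 ± 0.00334 and 0.0681 ± 0.0254 (SD, n = 4). Neither of these ratios overlapped between the genotypes, and Pdk1 exceeded Pdk2 in knockout replicates 2 and 3. The Pdk1 ratio depends on the transcript length assigned to Pdk1, which was 3853 to 4295 bases in wildtype and 2859 to 3816 in knockout libraries. This length rests on an estimated isoform mix that was not checked against reads. The share of Pdk1 did overlap, at 18.1 to 20.4% in wildtype and 18.3 to 28.1% in knockout hearts, while that of Pdk3 was 0.532 to 0.819% in wildtype and 0.868 to 2.31% in knockout hearts.

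The genes of both PDH phosphatases fell. Pdp2 (chr8:104591451-104599026) had 939, 851, 770.2 and 812 normalised counts in wildtype and 175, 165, 164 and 159.9 in knockout libraries. The knockout values lay within a narrow range far below all wildtype values, knockout replicate 3 included, and the log2 fold change was -2.34 (SE 0.121, adjusted p = 1.69e-81), the largest in size of the 31 genes. Pdp1, encoding the phosphatase that calcium stimulates in muscle mitochondria, had 719, 701, 574 and 739.9 in wildtype and 414, 489.9, 386 and 471 in knockout libraries. All knockout values were lower, knockout replicate 3 being the lowest, and the log2 fold change was -0.63 (SE 0.133, adjusted p = 1.8e-05). Under total counts without mitochondrial rRNA the direction of Pdp1 was the same but it was not called (log2 fold change -0.20, adjusted p = 0.278). The TPM ratio of Pdp1 to Pdp2 was 1.90 ± 0.176 in wildtype and 6.20 ± 0.803 in knockout hearts (SD, n = 4), without overlap.

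Relative to the phosphatases, kinase transcripts were more abundant in every knockout heart than in any wildtype heart. The summed TPM of the 4 kinases was 116, 105, 105 and 109 in wildtype and 84.6, 90.5, 184 and 108 in knockout hearts. The kinase sum overlapped between the genotypes and was highest in knockout replicate 3. The summed TPM of the 2 phosphatases was 13.3, 12.5, 10.6 and 12.3 in wildtype and 5.01, 6.17, 4.49 and 6.23 in knockout libraries, without overlap. Their ratio was 8.72, 8.35, 9.95 and 8.83 in wildtype and 16.9, 14.7, 41.0 and 17.4 in knockout hearts. This ratio was chosen after its values were seen, and it is given without a test. TPM sums include mitochondrial rRNA, so that TPM levels of nuclear genes are pressed down in the knockout libraries while ratios within a library are not.

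**Figure D4:**
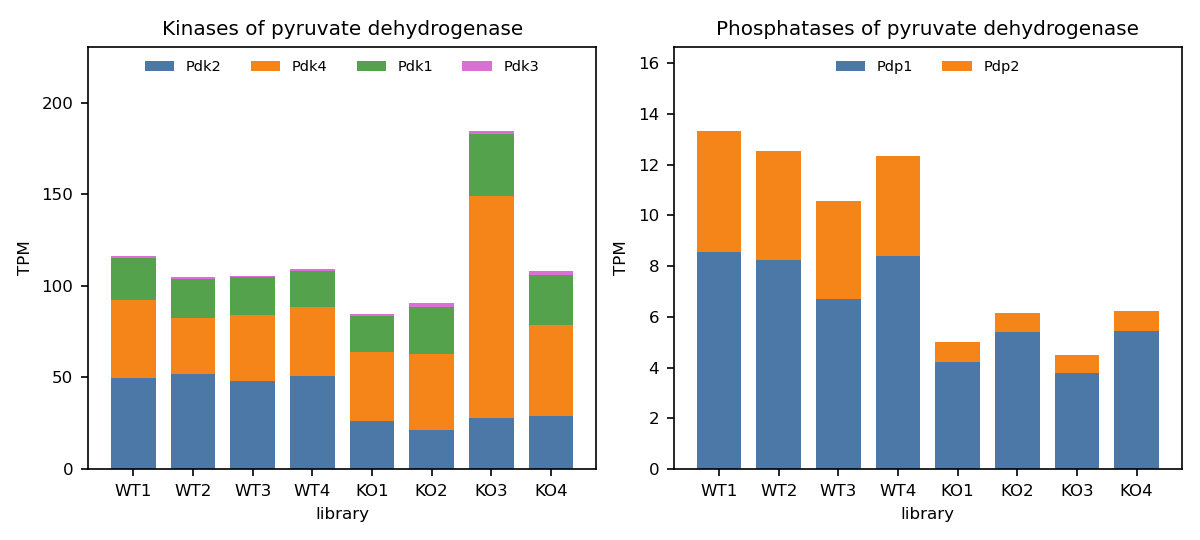
TPM of the PDH kinases (left) and phosphatases (right) stacked for each library along the horizontal axis, WT for wildtype and KO for knockout replicates 1 to 4. The Pdk2 part of each bar is the larger of Pdk2 and Pdk4 in each wildtype library and the smaller in each knockout library, and the phosphatase sum is 10.6 to 13.3 TPM in wildtype and 4.49 to 6.23 TPM in knockout libraries.

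Promoter sequences are shown for Pdhb and Pdk3, which rose, and Pdk2 and Pdp2, which fell, so that their start regions can be read directly. These are the genes that kept their call under all 15 alternatives and have an entry in the RefSeq promoter table. Pdk2 has 2 windows there, and the one nearest its GENCODE start is shown. The end of the window shown lay within a GENCODE transcript of the gene for Pdhb, Pdk2 and Pdk3 but not for Pdp2. Each window holds 300 bases, from 250 before to 50 after the RefSeq start, on GRCm38.p6, printed 5′ to 3′ on the strand of the gene. Capitals mark matches on either strand to the motif CCAAT, which reads ATTGG on the other strand, to the palindrome CACGTG, and to TGACNNNGC, which reads GCNNNGTCA on the other strand. The window of Pdhb lies at chr14:8172943-8173242 on the minus strand, that of Pdk2 at chr11:95041322-95041621 on the minus strand, that of Pdk3 at chrX:93832101-93832400 on the minus strand and that of Pdp2 at chr8:104591222-104591521 on the plus strand.
Pdhb: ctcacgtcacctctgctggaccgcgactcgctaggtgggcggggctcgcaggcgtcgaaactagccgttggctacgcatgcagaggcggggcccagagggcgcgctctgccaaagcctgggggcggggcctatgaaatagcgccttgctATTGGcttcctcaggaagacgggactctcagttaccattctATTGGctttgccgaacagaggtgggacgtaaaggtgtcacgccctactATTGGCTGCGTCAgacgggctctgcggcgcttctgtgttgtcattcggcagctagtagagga
Pdk2: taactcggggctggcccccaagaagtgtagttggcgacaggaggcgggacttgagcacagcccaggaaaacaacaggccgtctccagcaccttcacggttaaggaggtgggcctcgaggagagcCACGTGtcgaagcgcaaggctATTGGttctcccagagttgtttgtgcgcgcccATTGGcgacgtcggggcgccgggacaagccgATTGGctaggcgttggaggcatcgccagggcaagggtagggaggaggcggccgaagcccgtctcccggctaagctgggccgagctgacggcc
Pdk3: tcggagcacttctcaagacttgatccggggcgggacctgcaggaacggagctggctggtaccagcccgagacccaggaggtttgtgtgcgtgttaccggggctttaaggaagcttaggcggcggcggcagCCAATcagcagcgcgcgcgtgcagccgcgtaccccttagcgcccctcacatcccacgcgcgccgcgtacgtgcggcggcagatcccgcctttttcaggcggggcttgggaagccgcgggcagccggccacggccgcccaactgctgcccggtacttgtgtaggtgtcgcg
Pdp2: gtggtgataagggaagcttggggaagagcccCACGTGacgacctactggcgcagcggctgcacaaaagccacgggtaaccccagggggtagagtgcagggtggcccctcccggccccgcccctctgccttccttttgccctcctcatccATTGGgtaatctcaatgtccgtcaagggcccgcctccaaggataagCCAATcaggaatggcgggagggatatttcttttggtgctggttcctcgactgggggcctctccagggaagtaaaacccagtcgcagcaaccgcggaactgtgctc

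The windows of Pdhb and Pdk2 each held 3 matches to CCAAT, that of Pdp2 held 2 and that of Pdk3 held 1. CACGTG occurred once in Pdk2 and once in Pdp2. In Pdhb the CCAAT match nearest to the start overlaps by 1 base with a TGACNNNGC match, and no other capitals overlap. The further motifs TGATGNAA (reverse complement TTNCATCA) and AAGGTCA (reverse complement TGACCTT) had no match in the 4 windows. RefSeq gave 39 windows for 28 of the 31 genes (none for Pdp1, Idh3a and Me2), some of them overlapping windows of 1 gene. CCAAT was found in 25 of these 39 windows (64.1%), against 37.4% of all 32851 windows of the same length. CACGTG was found in 6 (15.4%, against 7.15%), TGACNNNGC in 7 (17.9%, against 12.4%), TGATGNAA in 1 (2.56%, against 3.97%) and AAGGTCA in 1 (2.56%, against 4.72%). Whether these motif matches bear on the changes in expression was not tested.

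Of the 12 cycle enzymes, 4 were lower in knockout hearts, none was higher and 8 were not called, with a median log2 fold change of -0.21, whereas under total counts all 12 were called lower and under total counts without mitochondrial rRNA 8 were called higher and none lower. The shares of all genes tested called lower were 15.5%, 29.6% and 5.43% in these 3 fits, and those called higher 18.2%, 9.64% and 38.9%. The NAD-dependent isocitrate dehydrogenase, a regulated enzyme of the cycle, had its subunit genes on both sides of the threshold. Idh3b had 8582, 8136, 8049.9 and 8139 normalised counts in wildtype and 6269, 5265, 6258 and 4964 in knockout libraries. No knockout library reached the wildtype range, and the log2 fold change was -0.53 (SE 0.105, adjusted p = 3.72e-06). Idh3a, the catalytic subunit gene, had 6190.2, 6395, 6421 and 6087 in wildtype and 6099.7, 5634, 7123 and 5731 in knockout libraries, which overlapped, and its log2 fold change of -0.03 (SE 0.099, adjusted p = 0.857) was not called. The gene of the remaining subunit, Idh3g, ranged over 5885 to 6583 in wildtype and 4904 to 6311 in knockout libraries, a log2 fold change of -0.20 (SE 0.107, adjusted p = 0.139) that was not called. Without knockout replicate 3 it was -0.29 (adjusted p = 0.0004) and called lower. Relative to Idh3b, the TPM of Idh3a was 0.503 ± 0.0231 in wildtype and 0.715 ± 0.0544 in knockout hearts, and that of Idh3g 0.813 ± 0.0181 and 1.03 ± 0.0953 (SD, n = 4), both without overlap.

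Idh2, encoding the NADP-dependent isocitrate dehydrogenase of mitochondria, had 24309, 23254, 20388 and 21625 normalised counts in wildtype and 12664, 13565, 22844 and 14360.3 in knockout libraries. Knockout replicates 1, 2 and 4 lay well below all wildtype hearts, and knockout replicate 3 lay inside the wildtype range. The log2 fold change was -0.50 (SE 0.184, adjusted p = 0.0233), and the call was lost when any of wildtype replicates 1 and 2 or knockout replicates 1, 2 and 4 was left out, at log2 fold changes from -0.48 to -0.40 (adjusted p from 0.0678 to 0.0873). Without knockout replicate 3 it was -0.73 (adjusted p = 4.18e-15). Fh1, encoding fumarase, had 5404, 5327, 5180.3 and 5278 in wildtype and 3748, 3715, 4281 and 3337 in knockout libraries. All knockout values were lower, knockout replicate 3 being the nearest to wildtype, and the log2 fold change was -0.49 (SE 0.0956, adjusted p = 2.94e-06). Sucla2, encoding the ADP-specific subunit of succinyl-CoA synthetase, had 7842, 7482, 7619 and 7732 in wildtype and 6243, 5677, 6911 and 5500.0 in knockout libraries. Here too the groups were separate, with a log2 fold change of -0.33 (SE 0.0959, adjusted p = 0.00243) that turned to 0.09 under total counts without mitochondrial rRNA.

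The partner genes of Sucla2 were not called with all 8 libraries. Suclg1, encoding the subunit shared by the ADP-specific and GDP-specific enzymes, ranged over 3481 to 3655 in wildtype and 2619 to 3286 in knockout libraries, without overlap, at a log2 fold change of -0.23 (SE 0.0994, adjusted p = 0.0545). Suclg2, encoding the GDP-specific subunit, ranged over 2431 to 2847 and 2128 to 2445, with slight overlap, at -0.22 (SE 0.0927, adjusted p = 0.0521). Both lay near the threshold and were called lower by edgeR, with adjusted p = 0.0377 for Suclg1 and 0.0396 for Suclg2, and by DESeq2 with the filter on low counts, with adjusted p = 0.0386 and 0.0377. Without knockout replicate 3 both were called lower as well, Suclg1 at -0.28 (adjusted p = 0.00874) and Suclg2 at -0.26 (adjusted p = 0.0126), whereas under total counts without mitochondrial rRNA both were called higher, at 0.19 (adjusted p = 0.0403) and 0.20 (adjusted p = 0.0376). The TPM ratio of Sucla2 to Suclg2 overlapped between the genotypes, at 4.15 ± 0.253 in wildtype and 3.82 ± 0.289 in knockout hearts (SD, n = 4).

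Cs, encoding citrate synthase, which begins the cycle, had 19395, 19194, 17491 and 18929.7 normalised counts in wildtype and 14797, 14999, 22277 and 16097 in knockout libraries. Knockout replicate 3 was the highest of all 8 and the other 3 knockout hearts were the lowest, and the log2 fold change of -0.14 (SE 0.144, adjusted p = 0.501) was not called with all libraries and was -0.29 (adjusted p = 0.000284) without that library. Mdh2, encoding the mitochondrial malate dehydrogenase that closes the cycle, showed the same arrangement, with 7511, 7516, 7293 and 7415 in wildtype and 6258, 6228, 7874 and 6218 in knockout libraries. Its log2 fold change was -0.16 (SE 0.103, adjusted p = 0.233), and -0.25 (adjusted p = 8.37e-05) without knockout replicate 3. Ogdh and Dlst, of the 2-oxoglutarate dehydrogenase complex, were not called. Ogdh, the dehydrogenase component, ranged over 22818 to 25952 in wildtype and 23134 to 26219 in knockout libraries, at a log2 fold change of -0.01 (SE 0.0822, adjusted p = 0.93). Dlst, the succinyltransferase core, ranged over 7116 to 7348 and 6121 to 7117, at -0.14 (SE 0.079, adjusted p = 0.152).

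Each of the 4 anaplerotic and malic enzyme genes was called, 2 as higher and 2 as lower, whereas 1 was higher and 2 lower under total counts and 2 were higher and none lower under total counts without mitochondrial rRNA. Among all genes tested, 18.2% were called higher and 15.5% lower, against 9.64% and 29.6% under total counts and 38.9% and 5.43% without mitochondrial rRNA. Me2, encoding the NAD-dependent malic enzyme of mitochondria, which makes pyruvate from malate, had 108, 127, 125 and 113 normalised counts in wildtype and 231, 221, 267 and 279 in knockout libraries. All knockout values lay far above the wildtype values, with a 2.11-fold change and a log2 fold change of 1.08 (SE 0.152, adjusted p = 3.17e-11). Me1, the cytosolic NADP-dependent malic enzyme gene, had 1240.1, 1231, 1197 and 1179.9 in wildtype and 1512, 1667, 3154 and 1477 in knockout libraries. Knockout replicate 3 stood far above the other knockout libraries, which also lay above every wildtype heart, and the log2 fold change was 0.69 (SE 0.228, adjusted p = 0.0102). Without knockout replicate 3 it was 0.36 (adjusted p = 0.000124). Pcx, encoding pyruvate carboxylase, the main anaplerotic enzyme fed by pyruvate, had 439.5, 528, 510.5 and 521 in wildtype and 393, 315, 239.8 and 425 in knockout libraries. Knockout replicate 3 was the lowest and knockout replicate 4 just below the lowest wildtype heart, at a log2 fold change of -0.54 (SE 0.182, adjusted p = 0.0117). Without wildtype replicate 2 the log2 fold change of Pcx was -0.51 and not called (adjusted p = 0.0509).

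Me3, encoding the NADP-dependent malic enzyme of mitochondria, had 1421, 1417, 1119 and 1328 normalised counts in wildtype and 915, 868, 1089.8 and 860.0 in knockout libraries. The groups were separate, and the log2 fold change was -0.50 (SE 0.127, adjusted p = 0.000459). This value is uncertain, because Me3 transcripts share a stretch of 400 to 483 bases at an identity of at least 95% with Rsph3b, Gm42974 and 1700034P13Rik. With the counts of these genes added the log2 fold change of Me3 was 0.12 (adjusted p = 0.441). Rsph3b is itself a protein-coding gene, with a mean of 884 counts against 1147 for Me3. The sum therefore includes the change of Rsph3b and cannot show whether reads of Me3 were misassigned. In TPM the order of the malic enzymes was the same in all wildtype hearts, with Me3 at 25.1 ± 2.83, Me1 at 12.6 ± 0.517 and Me2 at 1.43 ± 0.116 (SD, n = 4). The ratio of Me3 to Me2 was 20.7, 17.6, 14.1 and 18.4 in wildtype and 6.22, 6.17, 6.40 and 4.83 in knockout hearts. With copies added the difference of this ratio on the log2 scale was -0.95 in place of -1.58. Me1 over Me2 overlapped between the genotypes, at 8.28 to 9.95 in wildtype and 4.56 to 10.2 in knockout hearts, and so did Pcx over Cs, at 0.0157 to 0.0202 and 0.00746 to 0.0184.

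Of the cytosolic counterparts, Mdh1 fell and Idh1 was not called. Mdh1, encoding the malate dehydrogenase of the malate-aspartate shuttle, had 26879, 25937, 25913 and 25492 normalised counts in wildtype and 21055, 18467, 22479.6 and 18226 in knockout libraries. No knockout value reached the wildtype range, and the log2 fold change of -0.38 (SE 0.0949, adjusted p = 0.000429) turned to 0.04 under total counts without mitochondrial rRNA. The TPM ratio of Mdh2 to Mdh1 was 0.285 ± 0.00579 in wildtype and 0.332 ± 0.0235 in knockout hearts (SD, n = 4), without overlap. Idh1, the cytosolic NADP-dependent isocitrate dehydrogenase gene, ranged over 619 to 753 in wildtype and 564 to 803 in knockout libraries, at a log2 fold change of -0.04 (SE 0.141, adjusted p = 0.853). Under total counts without mitochondrial rRNA Idh1 was called higher, at 0.39 (adjusted p = 0.032). The ratio of Idh2 to Idh1 overlapped between the genotypes, at 35.2 to 49.8 in wildtype and 22.0 to 52.7 in knockout hearts. Per transcript length Mdh1 was the most abundant of the 31 genes in wildtype hearts, at 582 ± 23.1 TPM, followed by Idh2 at 397 ± 35.5 TPM, and Pdk3 was the least abundant, at 0.718 ± 0.167 TPM (SD, n = 4).

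The transcript length that RSEM assigns to a gene is an average over its isoforms weighted by their estimated abundance, so that it moves when the estimated isoform mix moves. It varied between libraries in 26 of the 31 genes. In 6 of these 26 the knockout values did not overlap the wildtype values, against 7.83% of the 12894 genes whose length varied. Pdk1 had the widest difference, with 3853 to 4295 bases in wildtype and 2859 to 3816 bases in knockout libraries, with knockout replicate 3 the shortest. Pdp1 was shorter by less, at 2574 to 2599.8 bases in wildtype and 2432 to 2501 in knockout libraries. Idh3a (2089.8 to 2149 against 2032 to 2040.3 bases) and Pdk2 (2164 to 2192 against 2129 to 2149 bases) were also shorter. Mpc1 (919 to 949 against 953 to 956 bases) and Ogdh (3875 to 3943 against 3975 to 3988 bases) were longer in every knockout heart. The lengths rest on RSEM's split of reads among isoforms, which was not checked against reads here.

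**Figure D5:**
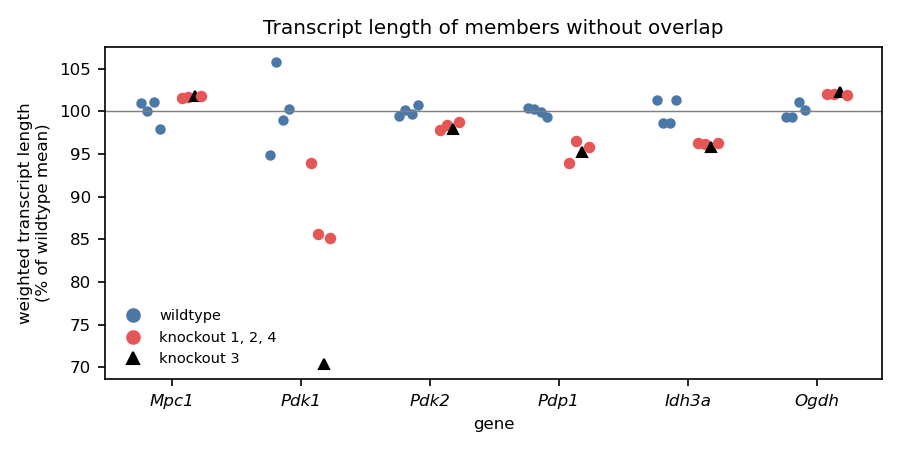
Isoform-weighted transcript length in each library as a percentage of the gene's wildtype mean (vertical axis) for the 6 genes whose genotypes did not overlap (horizontal axis), with blue points for wildtype, red points for knockout replicates 1, 2 and 4 and black triangles for knockout replicate 3. Pdk1 shows the widest difference and the widest spread, and Mpc1 and Ogdh are the only genes of the 6 with longer values in the knockout hearts.

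A list of 45 further genes around this pathway, such as other cycle subunits, lipoylation enzymes, transaminases, carriers and propionyl-CoA enzymes, was read in the same fit. Of the 43 that were tested, 7 were higher (16.3%, against 18.2% of all genes tested), 18 were lower (41.9%, against 15.5%) and 18 were not called, with a median log2 fold change of -0.17. Under total counts 4 were higher and 25 lower (9.3% and 58.1%, against 9.64% and 29.6% of all genes), and under total counts without mitochondrial rRNA 19 were higher and 7 lower (44.2% and 16.3%, against 38.9% and 5.43%). The largest rises among those whose normalised counts averaged 100 or more over the 8 libraries were Pck2, Adssl1 and Got1. Pck2, the mitochondrial phosphoenolpyruvate carboxykinase, which draws oxaloacetate from the cycle, rose from 133 ± 17.2 to 790.1 ± 86.4 normalised counts (SD, n = 4), a log2 fold change of 2.57 (SE 0.145, adjusted p = 7.19e-68). Adssl1, the muscle adenylosuccinate synthase of the purine nucleotide cycle, rose by 1.49 (SE 0.136, adjusted p = 5.27e-26), and Got1, the cytosolic aspartate aminotransferase of the malate-aspartate shuttle, by 0.78 (SE 0.163, adjusted p = 1.6e-05). Slc16a3, the gene of a lactate transporter, was the only called gene of the list below that mean, and it rose from 38.6 ± 16.7 to 142 ± 64.0 (SD, n = 4), a log2 fold change of 1.89 (SE 0.39, adjusted p = 1.2e-05); it is named after its values were seen. The largest falls were those of Slc25a42, a mitochondrial carrier of coenzyme A, at -1.53 (SE 0.184, adjusted p = 4.15e-15), Gpt, an alanine aminotransferase that makes pyruvate, at -1.51 (SE 0.161, adjusted p = 3.15e-19), and D2hgdh, which oxidises D-2-hydroxyglutarate to 2-oxoglutarate, at -1.51 (SE 0.259, adjusted p = 7.98e-08).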

How the data were processed

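RNA from 4 wildtype and 4 knockout hearts was sequenced as paired-end, reverse-stranded libraries primed with random hexamers after depletion of cytoplasmic rRNA. The authors made the deposited expected counts with RSEM 1.2.31 and bowtie2 on GENCODE vM13 transcripts with added mitochondrial sequences (build mm10). RSEM divides reads among matching genes, so counts need not be whole. The deposited TPM values and transcript lengths, which are other values by the authors, come from the same RSEM run, and TPM includes mitochondrial RNA. The authors' own table of fold changes and p-values was not used, nor were 8 columns of normalised counts whose names match no sample label.

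Expected counts were rounded and fitted with DESeq2 1.42.0 (R 4.3.3). The model held genotype alone over the 8 libraries, with size factors by median of ratios and an offset for effective length (at least 1). Benjamini-Hochberg adjustment ran over all genes. Depth was 35218541 to 47743376 counts per library. The alternatives tried were TMM scaling in edgeR 4.0.16, counts without the length offset, genes with at least 10 counts in at least 4 libraries, size factors from nuclear genes, total counts with and without mitochondrial rRNA, the replicate number as a block, each library left out, and near-identical copies added. Leaving libraries out of the TPM ratios was added after the data were seen. The fits were tested on simulated data.

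Symbols and coordinates (GRCm38, the assembly of mm10) came from GENCODE M21, which matched 50339 of 50563 Ensembl identifiers. Copies were transcripts of other genes matching at 95% identity over 200 bases or more. They need not match along the whole transcript. Libraries within a group differed by more than sampling noise (chi-square per degree of freedom 4.40 to 48.3), so each counted as 1 replicate. All 31 members are named, with Lrpprc and, of 45 pathway genes, the 3 called genes that rose most and the 3 that fell most at a mean of 100 or more normalised counts. The members and lists were chosen with earlier results of these data known. The age and sex of the mice are those stated for the whole study.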

Additional observations from a re-analysis of the deposited data

Results flagged for a closer look

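In each genotype the highest or lowest of the 4 libraries was set against the other 3 for the 31 genes and Lrpprc. Of 64 such groups, 9 had a library far from the others, where chance alone gives about 1 in 20, or 3.2 groups. The groups come from the same 8 libraries and are not independent, so 3.2 is only a rough guide. Knockout replicate 3 was that library in 6 of the 9, always as the highest. It had 17191 normalised counts of Pdk4, against 5151 to 6038 in the other knockout hearts. For Idh2 it had 22844, against 12664 to 14360, which placed it among the wildtype hearts. For Me1 it had 3154, against 1477 to 1667. Pdhx stood at 3156 there, against 2429 to 2504, and Dld at 5378, against 4048 to 4199.8. Mdh2 stood at 7874, against 6218 to 6258. The remaining groups were small departures. Wildtype replicate 1 was high for Idh3b, at 8582 against 8049.9 to 8139, and for Suclg1, at 3655 against 3481 to 3509, and knockout replicate 2 was low for Lrpprc, at 504 against 597 to 605. The cause of these departures was not tested.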

How the results depend on the processing

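Across the 15 alternatives for each of the 31 genes, direction and call were the same in 395 cases, a call was lost in 19, gained in 29 and the direction reversed in 27, which includes 1 further alternative for the 5 genes with copies. Total counts gave 3 members higher, 21 lower and 4 pathway genes higher, with a members' median of -0.46, and reversed Mpc1 (-0.11), Pdha1 (-0.26) and Dld (-0.27). Total counts without mitochondrial rRNA gave 20 members higher and 2 lower, 19 pathway genes higher and 7 lower and a median of 0.26, and reversed Dlat (0.24), Cs (0.28), Idh3a (0.39), Idh3g (0.22), Ogdh (0.41), Dlst (0.28), Sucla2 (0.09), Suclg1 (0.19), Suclg2 (0.20), Mdh2 (0.26), Idh1 (0.39) and Mdh1 (0.04). The shift follows from the construction of these scalings. Without a length offset Ogdh was 0.02, and with copies added Me3 was 0.12 and the ratio of Me3 to Me2 differed by -0.95 (log2); the cause was not tested. Leaving out single libraries gave 5 to 7 members higher, 9 to 17 lower (17 without knockout replicate 3), against 15.7 to 19.4% and 13.2 to 17.2% of all genes, and a median of -0.26 to -0.13. The range was -0.11 to 0.11 for Pdha1 and -0.07 to 0.08 for Dld, both lowest without knockout replicate 3. Idh1 ran from -0.15 to 0.02, reversed without knockout replicate 3 (0.02) and wildtype replicate 3 (0.01), Idh3a was reversed without knockout replicates 2 (0.01) and 4 (0.00), and Ogdh ran from -0.05 to 0.01, reversed without wildtype replicates 1 and 2 (0.01 and 0.00) and knockout replicates 2 and 4 (0.01 each). Same-numbered libraries did not deviate together (correlations -0.07 to 0.07), and the labels state no pairing, so the main fit used none. These correlations cannot exclude a pairing. With the replicate block 6 members were higher, 11 lower, and 5525 genes were called in place of 6728, with Lrpprc at -2.67. Depth limits Pdk3 and Me2 most, at 41 to 170 and 102 to 297 counts per library.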
